A study of Mus musculus with 8 samples.

Results

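The genes described here encode the sugar and monocarboxylate transporters of mouse bone marrow stem and progenitor cells. They were taken as every gene whose symbol starts with Slc2a, Slc5a or Slc16a followed by a number, which gave 39 of the 20207 genes in the expression tables (12 Slc2a, 13 Slc5a and 14 Slc16a genes). Of these 39 genes, 21 reached 0.5 RPKM in at least 1 library (6 Slc2a, 4 Slc5a and 11 Slc16a genes), and 20 of these are described by name. RPKM counts reads per kilobase of transcript and scales them to the mapped reads of a library, so levels of different genes can be set side by side per length. Slc16a3 was the described gene with the lowest maximum, at 0.684 RPKM, and Slc5a12 was the highest of the 18 genes left out, with a maximum of 0.213 RPKM.

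RNA sequencing was carried out on 8 libraries of sorted bone marrow cells from healthy mice and from mice with chronic myelogenous leukaemia (CML). In the CML mice a tetracycline transactivator under the Tal1 enhancer (Tal1-tTA), which is active in haematopoietic stem cells, switches on a TRE-BCR-ABL1 transgene once doxycycline is withdrawn, and CML cells were collected 5 weeks later. The healthy littermate controls that the study's methods describe carry Tal1-tTA without BCR-ABL1 and are FVB/N, whereas the labels give C57BL/6 for all 8 libraries and an age of 2 or 6 months for the normal libraries, with no age for the CML libraries. Strain, age and disease therefore cannot be told apart wherever CML and normal libraries are compared. Within the KLS+ gate (cKit+Lineage-Sca-1+), cells without CD48 and CD135 were split by CD150 into long-term (LT, CD150+) and short-term (ST, CD150-) stem cells. Committed progenitors were KLS- cells, which lack Sca-1. Normal LT cells (LT-HSCs) gave 2 libraries, 1 at 2 months and 1 at 6 months of age, LT-CML stem cells gave 2 libraries, and normal ST, CML ST, normal KLS- and CML KLS- cells gave 1 library each. How many mice were pooled for each library is not given in the sources used here. Nor is it given whether the LT-CML replicates, or the LT, ST and KLS- libraries, shared any mice. The p-values therefore measure the spread between these libraries only. The 2 LT-HSC libraries came from different mice, since their ages differ.

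Members of the Slc2a family (the GLUT proteins) let hexoses and related solutes pass down their gradient across the membrane. Slc5a proteins couple uptake of sugars, inositol or vitamins to the sodium gradient that the sodium pump maintains. Slc16a proteins (the MCT proteins) move lactate, pyruvate and other monocarboxylates together with a proton, although several members carry aromatic amino acids, creatine or other solutes, and some of them need the chaperones basigin or embigin to reach the cell surface.

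Depth was estimated at 17.8 to 23.9 M reads per library from the steps between low RPKM values. Of the sorting markers, Slamf1 (CD150) was 10.7 to 35.5 RPKM in the 4 LT libraries and at most 2.87 RPKM in the other 4, and Ly6a (Sca-1) was 72.4 to 152 RPKM in the 6 stem libraries against 8.16 and 11.7 RPKM in the KLS- libraries. Flt3 (CD135) and Cd48, which the gate for both LT and ST cells excludes, were nevertheless present: Flt3 was highest in the ST libraries (61.6 and 71.6 RPKM), and Cd48 was 41.8 and 45.2 RPKM in ST, 16.8 and 29.5 RPKM in LT-CML and 10.5 and 5.17 RPKM in LT-HSC libraries. The LT-HSC library from 6 months and the second LT-CML library stood apart from their replicates. The summed level of 9 neutrophil markers was 4165 RPKM in the former against 601 RPKM at 2 months, and 3831 RPKM in the latter against 321 RPKM in the first LT-CML library. The highest of these markers was S100a8 in the LT-HSC library from 6 months (1802 RPKM) and Mpo in the second LT-CML library (1291 RPKM). The ST libraries differed as well, with a sum of 2168 RPKM in ST-CML cells against 255.5 RPKM in ST-HSCs. Ddx3y, a Y-linked gene, was 31.0 RPKM in the LT-HSC library from 6 months and 17.5 RPKM in the second LT-CML library, and was at most 0.0625 RPKM in the other 6. Xist, which is expressed in female cells, was 0.154 RPKM in the LT-HSC library from 6 months. It was 13.5 RPKM in the second LT-CML library, which thus carried both transcripts, and 12.4 to 30.8 RPKM in the other 6. H2-Ea, a strain-dependent class II gene, was 0 to 0.064 RPKM in the normal stem libraries and 0.772 to 1.58 RPKM in the CML stem libraries (adjusted p = 0.0121 from limma). It had a total above 1 RPKM only through the CML stem libraries, so this test is conditional on the group in which it was high. Because both second LT libraries stood apart, results between stem cells are also given without them, a setting that keeps the ST-CML library.

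Slc2a3 (GLUT3, a high-affinity glucose transporter) was the highest transporter transcript in every LT and ST library. It was 44.8 and 33.7 RPKM in the LT-HSC libraries, 42.3 RPKM in ST-HSCs, 42.8 and 45.4 RPKM in the LT-CML libraries and 37.2 RPKM in ST-CML cells, and 5.71 and 3.97 RPKM in normal and CML KLS- cells. Normal and CML stem libraries overlapped, and both KLS- libraries lay below all of them. Its share of the summed RPKM of the 39 genes was 45.1% to 51.2% in the 6 stem libraries, and 11% and 6.76% in normal and CML KLS- cells. Slc16a1 (MCT1, which carries lactate and pyruvate) led instead in both KLS- libraries, with 21.6% of the sum in normal and 29.2% in CML KLS- cells against 5.37% to 9.97% in the stem libraries. The sum itself was 74.7 to 97.1 RPKM in the stem libraries and 51.7 and 58.8 RPKM in the KLS- libraries. In bulk samples fewer cells that carry a transcript and less of it per cell cannot be told apart.

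**Figure D1:**
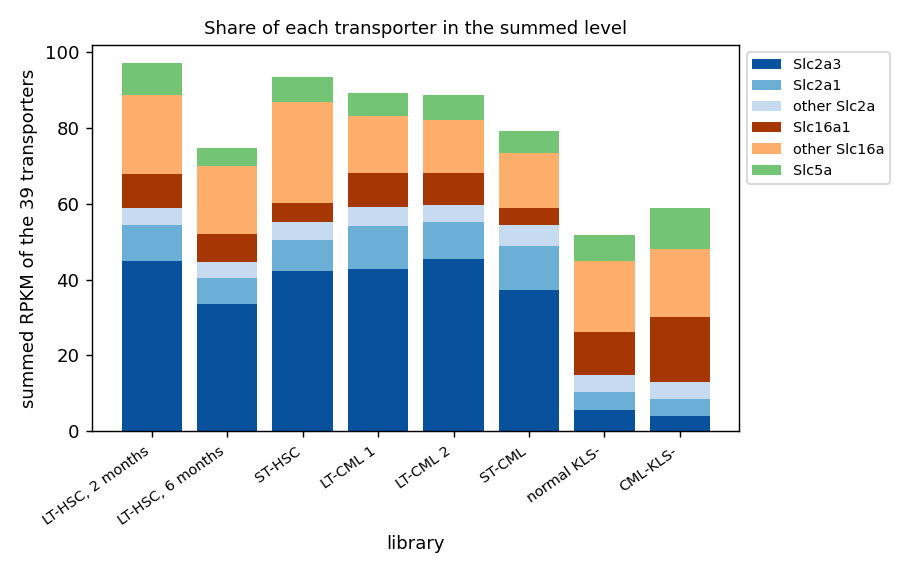
Summed RPKM of the 39 transporter genes (vertical axis, from 0) in each of the 8 libraries (horizontal axis), with the parts from Slc2a3, Slc2a1, the other Slc2a genes, Slc16a1, the other Slc16a genes and the Slc5a genes as stacked colours. Slc2a3 makes up 45.1% to 51.2% of the stem bars, and 11% and 6.76% of the KLS- bars.

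**Figure D2:**
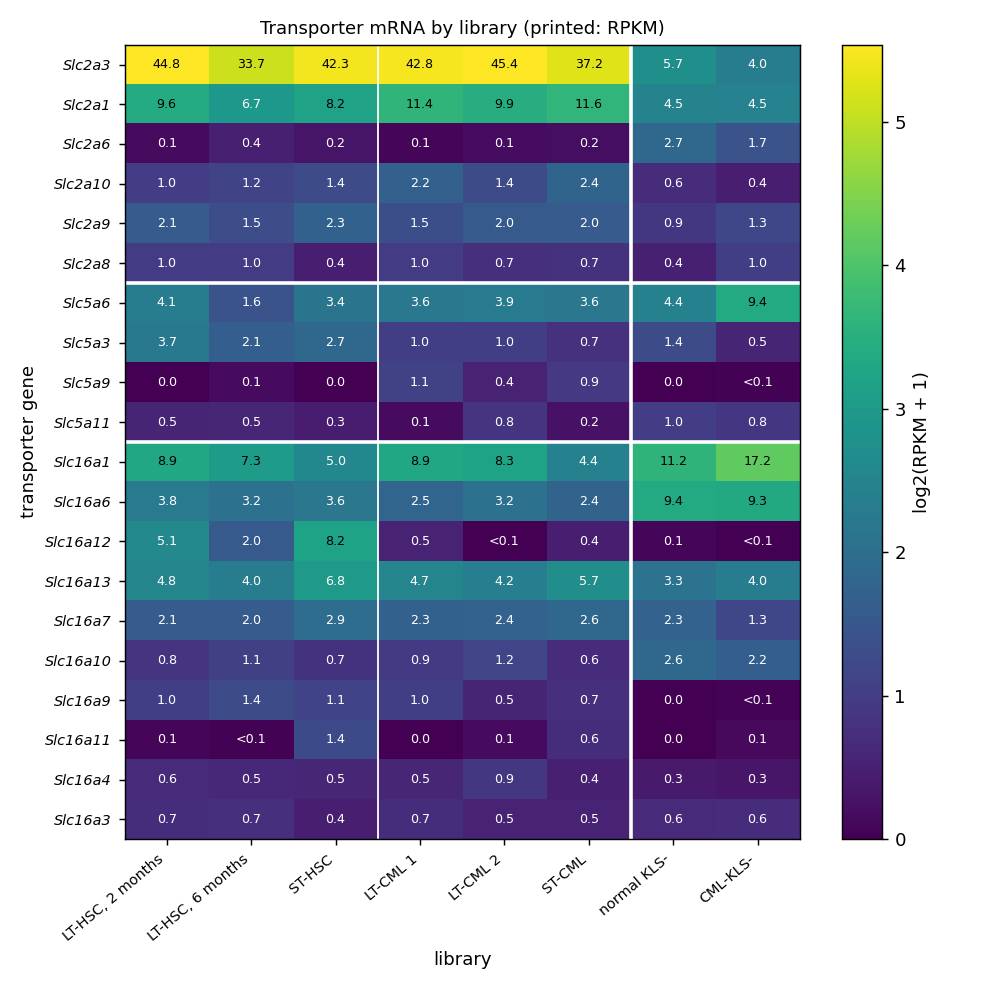
Levels of 20 of the 21 transporter genes that reached 0.5 RPKM (vertical axis, grouped by family) in the 8 libraries (horizontal axis), with colour for log2(RPKM + 1) and the RPKM printed in each cell to 1 decimal. Slc2a3 is at 33.7 RPKM or more in the 6 stem libraries, and Slc16a12, Slc5a3 and Slc5a9 differ between the normal and the CML stem libraries.

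The first comparison was that of CML stem cells (2 LT-CML and 1 ST-CML library) with normal HSCs (2 LT-HSC and 1 ST-HSC library), which was fitted with limma on log2(RPKM + 1) over 12561 genes and called at a Benjamini-Hochberg adjusted p under 0.05. Slc16a12 and Slc5a3 were lower and Slc5a9 was higher in CML stem cells, so that 3 of the 21 transporters were called, 1 higher and 2 lower. Among all genes tested 2.34% were called, with 1.18% higher and 1.16% lower. The fit had no term for LT or ST, so the spread within each group includes that between LT and ST libraries. All 21 described transporters entered this fit, and their median log2 difference was -0.04, close to the median over all genes (-0.04). At an unadjusted p under 0.05 there were 5 transporters, which added Slc2a1 and Slc2a10. Of 9 erythroid markers tested, Hbb-b2 was also called lower in CML stem cells (6.01 to 33.2 RPKM in normal HSCs and 0 to 0.264 RPKM in CML stem cells, log2 difference -3.46, adjusted p = 0.022), and Hbb-b1 had a log2 difference of -3.18 (adjusted p = 0.143). No neutrophil, macrophage, mast cell, megakaryocyte, lymphoid or stromal marker was called in this comparison. The part of erythroid transcripts in the transporter differences was not tested.

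Slc16a12 encodes MCT12, a transporter linked to creatine, and lies on the minus strand of chromosome 19 (mm9, 34742893 to 34821779). It was 5.10 and 1.97 RPKM in the LT-HSC libraries and 8.25 RPKM in ST-HSCs, against 0.474 and 0.0142 RPKM in the LT-CML libraries and 0.374 RPKM in ST-CML cells. Every normal stem library was above every CML stem library, although the normal values themselves spread from 1.97 to 8.25 RPKM. Slc16a12 had a total above 1 RPKM only through the normal stem libraries, so that it entered the test by the group in which it was high. The second LT-CML value corresponds to about 1 read and the highest normal value to about 628 reads. The mean was 5.11 ± 3.14 RPKM (SD, n = 3) in normal HSCs and 0.288 ± 0.242 RPKM (SD, n = 3) in CML stem cells, a ratio of 17.8. The log2 difference on the log2(RPKM + 1) scale was -2.12 (SE 0.39, adjusted p = 0.0356 from limma). Without both second LT libraries it was -2.40 with an adjusted p of 0.0562, so the direction was kept and the call was lost. In the KLS- libraries Slc16a12 was 0.051 RPKM in normal and 0.0145 RPKM in CML cells, about 4.2 and 1 reads, which is too few to compare them.

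Slc5a3 encodes SMIT1, which takes up myo-inositol with sodium, and lies on the plus strand of chromosome 16 (mm9, 92058567 to 92087718). It was 3.71 and 2.15 RPKM in the LT-HSC libraries and 2.65 RPKM in ST-HSCs, against 1.04 and 1.05 RPKM in the LT-CML libraries and 0.733 RPKM in ST-CML cells. The groups did not overlap, and both LT-CML values lay close together. The normal KLS- library (1.43 RPKM) was also above the CML KLS- library (0.478 RPKM), a ratio of 3.0 with no replicate. The mean was 2.84 ± 0.796 RPKM (SD, n = 3) in normal HSCs and 0.939 ± 0.178 RPKM (SD, n = 3) in CML stem cells, a ratio of 3.02. The log2 difference was -0.97 (SE 0.18, adjusted p = 0.0378 from limma), and -1.14 with an adjusted p of 0.134 without both second LT libraries. Slc5a3 shares 696 exonic bases on the same strand with Mrps6, a mitochondrial ribosomal protein gene. Mrps6 was 9.39 to 12.9 RPKM in the 8 libraries, with a log2 difference of 0.11 between CML and normal stem cells (adjusted p = 0.842 from limma). How reads on the shared bases were counted is not given, and their part in the Slc5a3 values was not tested.

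Slc5a9 encodes SGLT4, which carries mannose, fructose and glucose with sodium, and lies on the minus strand of chromosome 4 (mm9, 111547980 to 111575523). It was listed at 0 in the LT-HSC library from 2 months, at 0.115 RPKM in that from 6 months and at 0 in ST-HSCs, against 1.09 and 0.441 RPKM in the LT-CML libraries and 0.898 RPKM in ST-CML cells. Slc5a9 reached 0.5 RPKM, and a total above 1 RPKM, only through the CML stem libraries, so the lack of overlap between the groups is a description and its test is conditional on that selection. By estimate the normal stem values rest on 0, 14 and 0 reads and the CML stem values on 117, 42 and 87. The log2 difference was 0.79 (SE 0.15, adjusted p = 0.0426 from limma) on the log2(RPKM + 1) scale, and 0.99 with an adjusted p of 0.0629 without both second LT libraries. Slc5a9 was listed at 0 in normal KLS- cells and at 0.0258 RPKM in CML KLS- cells, about 2.4 reads.

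The calls rested on few libraries. Leaving out 1 library at a time, Slc16a12 was called in 2 of 6 fits, Slc5a3 in 1 of 6 and Slc5a9 in 1 of 6, and none changed direction.

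**Figure D3:**
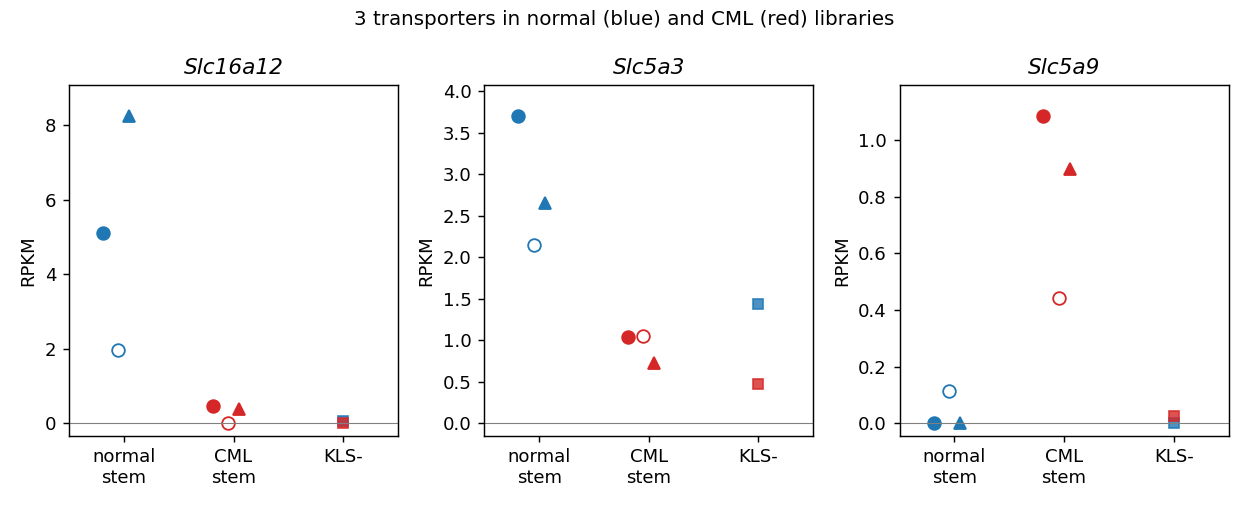
RPKM of Slc16a12, Slc5a3 and Slc5a9 (vertical axes) in normal stem, CML stem and KLS- libraries (horizontal axis), with 1 point for each library, blue for normal and red for CML. Circles are LT libraries (open for the LT-HSC library from 6 months and the second LT-CML library), triangles ST and squares KLS- libraries. Normal and CML stem points do not overlap in any of the 3 panels, which show genes chosen because they were called in this comparison. Slc2a1 and Slc16a6, which were not called, did not overlap either. The share of all genes without overlap was not computed, so the lack of overlap is a description only.

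The sequences before the starts of Slc16a12 and Slc5a3 are shown because both were lower in CML stem cells. The RefSeq promoter table (GRCm38.p6, a later build than that of the RPKM values) matched 15 of the 21 described genes. Each stretch holds the 250 bases before the annotated start and reads in the direction of transcription. Capitals mark matches, on either strand, to any of 5 motifs. These were the STAT site TTCNNNGAA, the E-box CACGTG and the hypoxia response core ACGTG, which also lies within the E-box. The other motifs searched were the GATA site AGATAA and the GC box with the letters GGGCGG.
Slc16a12, chr19:34747329-34747578, minus strand: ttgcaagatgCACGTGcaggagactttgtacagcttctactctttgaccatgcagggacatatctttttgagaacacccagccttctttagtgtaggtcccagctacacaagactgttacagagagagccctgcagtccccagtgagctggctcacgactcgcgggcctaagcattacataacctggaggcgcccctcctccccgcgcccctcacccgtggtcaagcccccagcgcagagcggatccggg
Slc5a3, chr16:92058072-92058321, plus strand: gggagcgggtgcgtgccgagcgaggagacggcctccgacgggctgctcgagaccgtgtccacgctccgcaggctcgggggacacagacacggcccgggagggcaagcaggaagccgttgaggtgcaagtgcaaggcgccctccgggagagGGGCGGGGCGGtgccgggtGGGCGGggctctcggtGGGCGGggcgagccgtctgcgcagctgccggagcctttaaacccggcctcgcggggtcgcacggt
The Slc16a12 stretch held 1 CACGTG and no GGGCGG, whereas the Slc5a3 stretch held 4 GGGCGG matches, of which the first pair overlap, and no ACGTG. Neither held TTCNNNGAA or AGATAA. Over the 32851 promoters of the table, the 250 bases held CACGTG in 6.02%, ACGTG in 16.6%, GGGCGG in 32.7%, TTCNNNGAA in 7.02% and AGATAA in 9.99%. GC content was 57.6% before Slc16a12 and 74.8% before Slc5a3. The 2 stretches therefore had no searched motif in common.

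Slc2a3 and Slc16a1, among the transporters with the highest levels, differed little between CML and normal stem cells. Slc2a3 had a log2 difference of 0.06 (SE 0.16, adjusted p = 0.922), with means of 41.8 ± 4.20 RPKM in CML stem cells and 40.3 ± 5.85 RPKM in normal HSCs (SD, n = 3 each). Slc16a1 had a log2 difference of 0.01 (SE 0.28, adjusted p = 0.995). Slc2a1 (GLUT1, a glucose transporter of most cells) was 9.57 and 6.71 RPKM in the LT-HSC libraries and 8.17 RPKM in ST-HSCs, against 11.4 and 9.87 RPKM in the LT-CML libraries and 11.6 RPKM in ST-CML cells. The CML values were all above the normal ones, but the log2 difference of 0.39 (SE 0.17) did not pass the threshold (adjusted p = 0.388 from limma). Slc2a10 (GLUT10) was 1.0, 1.21 and 1.40 RPKM in the normal and 2.24, 1.40 and 2.42 RPKM in the CML stem libraries, which met at 1.40 RPKM (log2 difference 0.44, SE 0.17, adjusted p = 0.351). Slc16a6 (MCT7, a carrier of ketone bodies) was 3.77, 3.21 and 3.58 RPKM in the normal and 2.5, 3.20 and 2.41 RPKM in the CML stem libraries, with an adjusted p of 0.494.

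LT-CML stem cells were then compared with LT-HSCs alone (2 libraries each), with the spread taken from the LT replicates in a fit of all 8 libraries. None of the 21 transporters was called by limma, against 1.73% of all genes tested, and 3 had an unadjusted p under 0.05. These were Slc16a12 with a log2 difference of -1.80 (SE 0.34, adjusted p = 0.0532), Slc5a3 with -0.92 (SE 0.22, adjusted p = 0.117) and Slc5a9 with 0.72 (SE 0.19, adjusted p = 0.145). The LT libraries are also part of the pooled comparison, so these values are not independent of it. Among markers of other cell types, Car1, Hbb-b2, Cd79a and Ppbp were called lower in LT-CML cells (log2 differences -2.53, -3.95, -1.51 and -1.13), and the sorting marker Flt3 was called higher (1.96). With only the genes that averaged at least 1 RPKM in the test, Slc16a12 had the same difference and an adjusted p of 0.0242.

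KLS- progenitors were next compared with the stem libraries, in a fit with terms for disease and population over all 8 libraries. The KLS- term was set against the mean of the LT and ST terms, so LT and ST weigh equally although ST has fewer libraries. The log2 differences therefore need not equal those of plain means over the stem libraries. Of the 21 transporters, 16 were called, 6 higher and 10 lower in KLS- cells. This contrast was broad: 48.7% of all genes tested were called, with 22.2% higher and 26.5% lower. The median log2 difference of the 21 transporters was -0.43, against -0.08 over all genes. Quantile normalization turned the balance of calls, with 11 transporters called, 7 higher and 4 lower. Lineage markers moved with the same contrast. In KLS- cells 4 of 9 neutrophil, 5 of 9 erythroid, 5 of 6 macrophage and monocyte and 5 of 6 mast cell and basophil markers were higher. Of the lymphoid markers 1 of 7 was higher, whereas 6 of 7 megakaryocyte and 1 of 3 stromal and endothelial markers were lower. The 4 neutrophil markers called were Mpo, Ela2, Prtn3 and Ctsg. Camp, Ltf, Ngp and S100a9 went the other way (log2 differences -1.016, -1.588, -1.445 and -0.741) and S100a8 did not (0.675), with none of these called. Erythroid markers did not move as one: Car1 was 805 and 1775 RPKM in normal and CML KLS- cells against 2.71 to 91.7 RPKM in stem libraries, whereas Hbb-b1 was 2.21 and 1.61 RPKM in KLS- cells against 56.3 RPKM in the LT-HSC library from 6 months, and Hba-a1 and Hba-a2 were at 0 in all 8 libraries. Their part in the transporter differences was not tested.

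**Figure D4:**
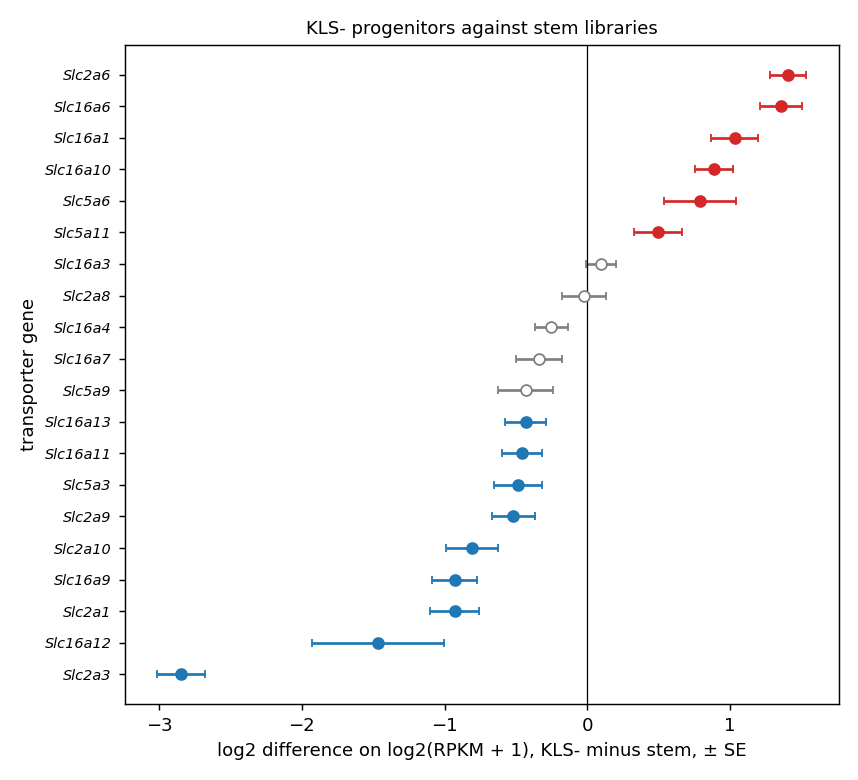
Difference between KLS- and stem libraries for 20 of the 21 described transporters (vertical axis), as the log2 difference on the log2(RPKM + 1) scale with its SE from limma (horizontal axis). Filled points passed an adjusted p under 0.05 (red higher, blue lower in KLS- cells) and open grey points did not, with Slc2a3 at -2.85 the lowest and Slc2a6 at 1.41 the highest.

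Among the hexose transporters, Slc2a3 had the largest difference of the 21 genes, lower in KLS- cells by 2.85 on the log2 scale (log2 difference -2.85, SE 0.17, adjusted p = 1.43e-05 from limma). Its mean was 41.0 ± 4.63 RPKM in the 6 stem libraries and 4.84 ± 1.23 RPKM in the 2 KLS- libraries (SD), a ratio of 8.47, and the ratio was 7.05 within normal and 10.5 within CML libraries. Slc2a1 was 6.71 to 11.6 RPKM in the stem libraries and 4.55 and 4.45 RPKM in normal and CML KLS- cells, with a log2 difference of -0.93 (SE 0.17, adjusted p = 0.00224). Slc2a3 was thus 3.22 to 5.18 times as high as Slc2a1 in the stem libraries, 1.26 times in normal KLS- cells and 0.892 times in CML KLS- cells.

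Slc2a9 (GLUT9, a urate transporter) and Slc2a10 were lower in KLS- cells as well. Slc2a9 was 2.06 and 1.48 RPKM in LT-HSCs, 2.29 RPKM in ST-HSCs, 1.5 and 1.98 RPKM in LT-CML and 2.03 RPKM in ST-CML cells, against 0.870 and 1.25 RPKM in normal and CML KLS- cells (log2 difference -0.52, adjusted p = 0.0185). Slc2a10, with the stem values given above, was 0.634 and 0.386 RPKM in the KLS- libraries (log2 difference -0.81, adjusted p = 0.00643). Slc2a6 (GLUT6, an intracellular member of the family) went the other way. It was 0.117 and 0.412 RPKM in LT-HSCs, 0.249 RPKM in ST-HSCs, 0.0678 and 0.129 RPKM in LT-CML and 0.151 RPKM in ST-CML cells, but 2.68 and 1.68 RPKM in normal and CML KLS- cells. It reached 0.5 RPKM only in the KLS- libraries, so its place among the described genes is conditional on the group in which it was high. Both KLS- values were above all 6 stem values, and the log2 difference was 1.41 (SE 0.13, adjusted p = 8.09e-05).

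Among the sodium-coupled carriers, Slc5a6 (SMVT, which takes up biotin and pantothenate) was 4.09 and 1.65 RPKM in LT-HSCs, 3.37 RPKM in ST-HSCs, 3.61 and 3.86 RPKM in LT-CML and 3.59 RPKM in ST-CML cells. It was 4.38 RPKM in normal and 9.37 RPKM in CML KLS- cells, the latter the highest of the 8 values (log2 difference 0.79, SE 0.26, adjusted p = 0.0305). Without the CML KLS- library the difference was 0.45 (adjusted p = 0.355), and the call was also lost without the ST-CML (adjusted p = 0.101) or the first LT-CML library (adjusted p = 0.0533). The normal KLS- value was close to the LT-HSC value at 2 months. Slc5a11 (SMIT2, a myo-inositol carrier) was 0.124 to 0.821 RPKM in stem and 1.01 and 0.839 RPKM in KLS- libraries (log2 difference 0.49, adjusted p = 0.0365). Within the stem libraries it was 0.493, 0.519 and 0.341 RPKM in the 3 normal ones, 0.124 and 0.821 RPKM in the LT-CML libraries and 0.206 RPKM in ST-CML cells, so that the 2 LT-CML libraries lay at either end. Slc5a3 was lower in KLS- cells by the fit with a disease term (log2 difference -0.49, adjusted p = 0.0383), with a ratio of stem to KLS- cells of 1.98 within normal and 1.96 within CML libraries.

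Slc16a1, Slc16a6 and Slc16a10 were higher in KLS- cells. Slc16a1 was 8.86 and 7.27 RPKM in LT-HSCs, 5.03 RPKM in ST-HSCs, 8.90 and 8.28 RPKM in LT-CML and 4.43 RPKM in ST-CML cells, against 11.2 and 17.2 RPKM in normal and CML KLS- cells. Both KLS- values were above all stem values (log2 difference 1.03, SE 0.17, adjusted p = 0.00125). Slc16a6, at 2.41 to 3.77 RPKM in stem cells, was 9.43 and 9.33 RPKM in normal and CML KLS- cells, which differed from each other far less than from the stem libraries (log2 difference 1.36, SE 0.15, adjusted p = 0.000191). Slc16a6 shares 1052 exonic bases with Amz2, and the library kit does not mark strand. On the opposite strand, Slc16a9 shares 491 exonic bases with Gm7097, Slc5a6 396 with 0610007C21Rik and Slc2a1 105 with Gm12868. The part of such reads in the values was not tested. Slc16a10 (TAT1, a carrier of aromatic amino acids) was 0.809 and 1.07 RPKM in LT-HSCs, 0.75 RPKM in ST-HSCs, 0.913 and 1.23 RPKM in LT-CML and 0.617 RPKM in ST-CML cells, and 2.64 and 2.16 RPKM in the KLS- libraries (log2 difference 0.89, adjusted p = 0.000862).

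Slc16a9 and Slc16a12 were near 0 in KLS- cells. Slc16a9 (MCT9, linked to carnitine) was 1.03 and 1.42 RPKM in LT-HSCs, 1.15 RPKM in ST-HSCs, 1.03 and 0.478 RPKM in LT-CML and 0.693 RPKM in ST-CML cells. It had a total above 1 RPKM only through the stem libraries, so its call is conditional on the group in which it was high. Slc16a9 was listed at 0 in normal and at 0.0315 RPKM in CML KLS- cells (log2 difference -0.93, SE 0.16, adjusted p = 0.0016 from limma). Slc16a12 had a log2 difference of -1.47 (SE 0.46, adjusted p = 0.0274), but the CML stem values (0.0142 to 0.474 RPKM) already overlapped the KLS- values. Without the normal KLS- library the difference was -0.43 (adjusted p = 0.48), and without the ST-HSC library it was -1.08 (adjusted p = 0.0797).

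Slc16a13 (MCT13) was 4.76 and 3.99 RPKM in LT-HSCs, 6.82 RPKM in ST-HSCs, 4.72 and 4.17 RPKM in LT-CML and 5.67 RPKM in ST-CML cells, and 3.28 and 4.0 RPKM in the KLS- libraries, which overlapped the stem range at its lower end (log2 difference -0.43, adjusted p = 0.035). Slc16a11 (MCT11) was also called lower in KLS- cells (log2 difference -0.46, adjusted p = 0.0234 from limma), though this rested on the ST libraries, as given below. Genes were chosen from all 8 libraries, so fits without 1 library do not retest a selection such as that of Slc2a6 or Slc16a9. Leaving out 1 library at a time, 9 to 16 of the transporters were called, with 9 without the CML KLS- library and 10 without the ST-HSC library. Slc2a3, Slc2a6, Slc16a1, Slc16a6, Slc16a9 and Slc16a10 were called in all 8 of these fits, whereas Slc5a3 was called in 2, Slc5a11 in 3, Slc16a13 in 3, Slc5a6 and Slc16a11 in 5, and Slc2a9 and Slc16a12 in 6 of 8. Slc2a1 and Slc2a10 were called in 7 of 8, with log2 differences of -0.72 and -0.47 without the CML KLS- library (adjusted p = 0.0553 and 0.143).

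The sequences before Slc2a1 and Slc16a1 are shown because these glucose and lactate transporters went in opposite directions between stem and KLS- cells. They come from the same table, and capitals mark the same 5 motifs.
Slc2a1, chr4:119108495-119108744, plus strand: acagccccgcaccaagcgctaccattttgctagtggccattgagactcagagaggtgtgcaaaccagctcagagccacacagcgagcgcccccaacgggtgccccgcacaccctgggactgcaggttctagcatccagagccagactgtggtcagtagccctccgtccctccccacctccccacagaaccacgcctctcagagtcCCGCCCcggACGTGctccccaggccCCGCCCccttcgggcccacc
Slc16a1, chr3:104638414-104638663, plus strand: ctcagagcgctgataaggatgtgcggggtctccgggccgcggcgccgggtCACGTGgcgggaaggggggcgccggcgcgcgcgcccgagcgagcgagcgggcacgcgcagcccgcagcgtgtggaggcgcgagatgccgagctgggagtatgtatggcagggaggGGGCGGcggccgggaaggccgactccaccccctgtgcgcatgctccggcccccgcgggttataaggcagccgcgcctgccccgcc
The Slc2a1 stretch held 2 GGGCGG matches and 1 ACGTG, and the Slc16a1 stretch held 1 CACGTG and 1 GC box. The hypoxia response core ACGTG was found before 4 of the 15 described genes in the table (Slc16a1, Slc16a3, Slc16a12 and Slc2a1). GGGCGG was found before 9 of the 15 and TTCNNNGAA and AGATAA before none. Over all promoters of the table the shares were 16.6% for ACGTG, 32.7% for GGGCGG, 7.02% for TTCNNNGAA and 9.99% for AGATAA. The stretches of Slc2a1 and Slc16a1 both held GGGCGG and ACGTG, and the part of these motifs in the differences was not tested.

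ST cells were compared with LT cells in the same fit. Slc16a11 was the only transporter called (1 of 21, against 4.87% of all genes tested). It was 0.0571 and 0.0238 RPKM in LT-HSCs and 1.36 RPKM in ST-HSCs, and 0 and 0.125 RPKM in LT-CML and 0.642 RPKM in ST-CML cells, with 0 and 0.0959 RPKM in the KLS- libraries. It reached 0.5 RPKM, and a total above 1 RPKM, only through the ST libraries, so this call is conditional on the group in which it was high. Both ST values were above all others, at an estimated 65 and 31 reads against at most 5.8 in any other library. The low estimates of this gene lay at 1.5, 2.9, 4.4 and 5.8 reads, so its read estimates may be too high. The log2 difference was 0.91 (SE 0.15, adjusted p = 0.0101 from limma), and it was no longer called without the ST-HSC library (adjusted p = 0.108). Slc16a11 lies on the plus strand of chromosome 11 (mm9, 70026254 to 70029919) next to Slc16a13 on the minus strand (70030291 to 70034496), whose log2 difference between ST and LT cells was 0.42 (SE 0.15, adjusted p = 0.168). Slc16a1 was 4.43 and 5.03 RPKM in ST cells and 7.27 to 8.90 RPKM in LT cells, with no overlap, and had a log2 difference of -0.70 (SE 0.17, adjusted p = 0.0558). Each ST population had 1 library, so the ST arm has no replicate within a disease state.

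Whether a difference between CML and normal cells itself differed between stem and KLS- cells was tested as an interaction. None of the 21 transporters was called by limma, against 0.0239% of all genes tested (3 genes), and 2 had an unadjusted p under 0.05. Slc16a12 had a difference of differences of -2.22 on the log2 scale (SE 0.57), and Slc5a9 one of 0.78 (SE 0.31), with adjusted p-values from limma of 0.755 and 1. With 1 KLS- library for each disease state, the ratio of CML to normal KLS- cells is a pair of single values. For Slc16a1 it was 1.54 (17.2 against 11.2 RPKM), for Slc5a6 2.14, for Slc2a3 0.695, for Slc2a6 0.627 and for Slc16a6 0.989.

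Slc2a8, Slc16a3, Slc16a4 and Slc16a7 were called in none of the 5 comparisons. Slc2a8 (GLUT8, an intracellular member) ranged from 0.383 to 1.02 RPKM, Slc16a3 (MCT4, which carries lactate out of glycolytic cells) from 0.386 to 0.684 RPKM, Slc16a4 (MCT5) from 0.257 to 0.854 RPKM and Slc16a7 (MCT2, a high-affinity pyruvate and lactate carrier) from 1.25 to 2.93 RPKM. Their adjusted p-values in the comparison of CML with normal stem cells were 0.925 to 0.964. Slc16a3 shares 831 exonic bases with Csnk1d, which adds to the uncertainty of its low values.

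The 18 genes under 0.5 RPKM included 3 that were listed at 0 in every library, Slc16a8, Slc5a5 and Slc5a10. The others were Slc5a12, Slc2a2 (GLUT2, at most 0.156 RPKM), Slc5a8 (0.155 RPKM), Slc2a4 (GLUT4, the insulin-responsive transporter, 0.133 RPKM), Slc16a5 (0.133 RPKM), Slc2a12 (0.131 RPKM), Slc5a2 (SGLT2, 0.0888 RPKM), Slc2a13 (0.0843 RPKM), Slc2a5 (GLUT5, the fructose transporter, 0.0638 RPKM), Slc5a1 (SGLT1, 0.0548 RPKM), Slc16a14, Slc2a7, Slc5a4a, Slc5a4b and Slc5a7, the last 5 at or under 0.0457 RPKM. Slc2a2 had values above 0 only in the 3 normal stem libraries (0.156, 0.0163 and 0.124 RPKM) and Slc5a1 only in 3 CML libraries (0.037, 0.0548 and 0.0287 RPKM), levels too low to compare. How reads shared by close copies such as Slc5a4a and Slc5a4b were counted is not given in the sources used here.

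Genes that work with these transporters were followed with 4 lists of chaperones and regulators of uptake, hexose and lactate enzymes, transcription factors and sodium pump subunits, of which 31 of 39 entered the fits. None of the 31 was called between CML and normal stem cells (2.34% of all genes tested), where their median log2 difference was 0.03, and none between LT-CML and LT-HSCs or in the interaction (1.73% and 0.0239% of all genes tested). Between KLS- and stem cells 13 of the 31 were higher and 5 lower, whereas 22.2% of all genes tested were higher and 26.5% lower. The median log2 difference of the 31 was 0.20, against -0.08 over all genes. Between ST and LT cells Emb and Hk3 were higher and Ldha was lower (4.87% of all genes tested).

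The chaperones of MCT proteins were higher in KLS- cells, as Slc16a1 was. Emb (embigin) was 17.7 and 15.0 RPKM in LT-HSCs, 67.4 RPKM in ST-HSCs, 17.5 and 17.6 RPKM in LT-CML and 50.0 RPKM in ST-CML cells, and 151 and 98.8 RPKM in normal and CML KLS- cells. The LT libraries were thus lowest, the ST libraries between and the KLS- libraries highest, with log2 differences of 1.92 (SE 0.17, adjusted p = 7.37e-05) for KLS- against stem and 1.72 (SE 0.18, adjusted p = 0.00224) for ST against LT. Bsg (basigin, CD147) was 51.9 to 69.3 RPKM in stem and 89.7 and 95.1 RPKM in KLS- libraries (log2 difference 0.71, SE 0.13, adjusted p = 0.00265). Slc16a1 did not follow Emb in ST cells, where Emb was above and Slc16a1 below every LT library.

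**Figure D5:**
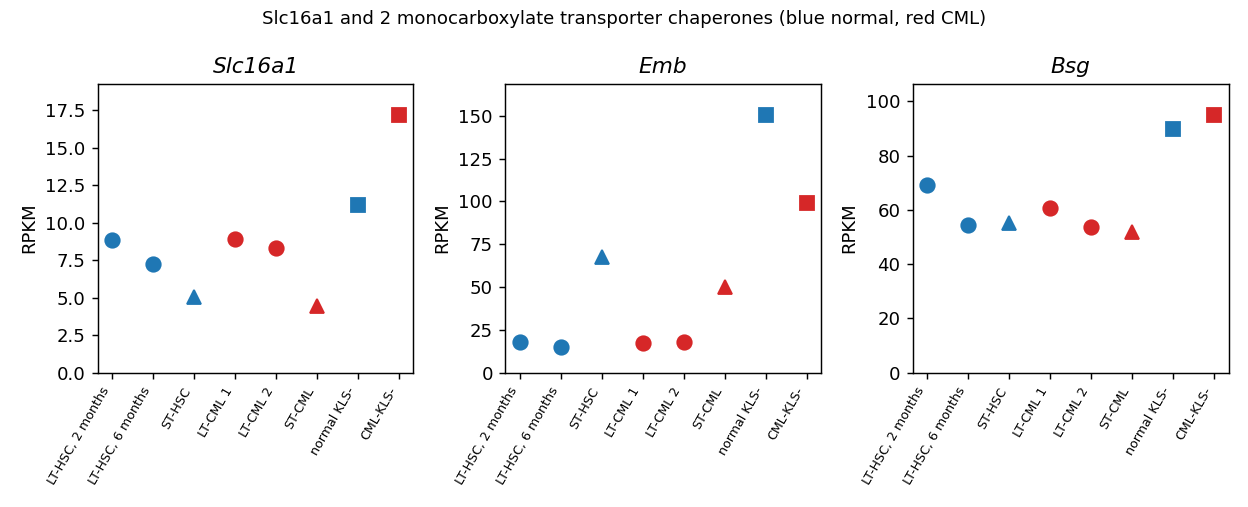
RPKM of Slc16a1, Emb and Bsg (vertical axes, from 0) in the 8 libraries (horizontal axes), with blue for normal, red for CML, circles for LT, triangles for ST and squares for KLS- libraries. Slc16a1 is lowest in ST cells (5.03 and 4.43 RPKM), whereas Emb there (67.4 and 50.0 RPKM) lies between LT and KLS- cells.

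Enzymes and regulators of hexose use differed in both directions between KLS- and stem cells. Hk3, a hexokinase of myeloid cells, was 1.08 to 14.5 RPKM in stem and 49.2 and 49.5 RPKM in KLS- libraries (log2 difference 2.86, adjusted p = 0.000117). Gpi1, Pkm2, Pklr, Pfkfb3 and Ldha, all of glycolysis and lactate formation, were also higher, with log2 differences of 1.24, 0.98, 3.29, 0.42 and 0.98. Ldhb, the other main lactate dehydrogenase subunit, was lower (log2 difference -1.24, adjusted p = 6.75e-05). Txnip and Arrdc3, arrestin-domain proteins of which Txnip promotes removal of GLUT1 from the surface, were lower, with log2 differences of -1.54 and -0.71. Txnip was 44.9 to 86.3 RPKM in stem and 18.1 and 23.7 RPKM in KLS- libraries, and so was lowest where Slc2a1 and Slc2a3 were lowest. Of the regulators Myc and Mlx were higher (log2 differences 0.64 and 0.99) and Ppargc1a and Srebf1 lower (-0.65 and -0.40). Of the sodium pump beta subunits Atp1b1 and Atp1b2 were higher (log2 differences 0.48 and 3.62).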

How the data were processed

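The RPKM values of 8 libraries were used as deposited. The authors primed cDNA with oligo-dT, using a kit for very small RNA amounts that does not mark strand, sequenced read pairs of 100 bases, mapped them to mm9 and computed RPKM, a normalization per transcript length and mapped reads. The gene annotation and counting rule are not given in the sources used here. Because RPKM are not counts, tests used limma 3.58.1 (R 4.3.3), with eBayes set to follow the intensity trend. Its input was log2(RPKM + 1) of the 12561 genes whose RPKM summed to more than 1. Adjusted p-values are Benjamini-Hochberg values over all of these genes, called under 0.05. The 5 comparisons were fitted on whole tables and tested on simulated data. Fold changes on this scale understate the change of low genes. Residual degrees of freedom were 4 for CML against normal stem cells, KLS- against stem and ST against LT, and 2 for the LT comparison and the interaction, where groups with 1 library are assumed to vary like the LT replicates.

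Reads per value and depth were estimated from the steps between low RPKM values. Of 3451 low genes examined, 75.6% lay on whole steps, within 3% of a step, a tolerance that widened above 4 reads. Of 2410 genes on whole steps with a known length, 857 lay at the most frequent depth, so read estimates of single genes can be off. The estimates cover counting error only, since amplified reads are not independent molecules. Gene positions come from GENCODE M1 on mm9, the build of the values, which placed all 39 genes. Genes were printed with all library values when called in any comparison or when at 10 RPKM or more in a library, and otherwise by range. The genes, lists and comparisons were chosen with earlier results of these data known. Other settings tried were the pseudocount, minimum RPKM, normalization, covariates, the eBayes trend and sets of libraries. Summaries and figures used Python 3.11. Values of 1 described transporter and of some sodium pump genes are not reported here, although the counts and medians include them.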

Additional observations from a re-analysis of the deposited data

How the results depend on the processing

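No called transporter changed direction under any alternative. For CML against normal stem cells, where 3 transporters were called, 0 were called with no minimum on RPKM, 1 with quantile normalization (Slc5a9), and 0 to 2 when 1 library was left out. Leaving out both second LT libraries, an alternative chosen after seeing the data, gave 0 transporters and 38 genes in place of 294. Over all genes that comparison called 543 with LT or ST as a covariate, 776 with the disease term of all 8 libraries and 115 to 217 when 1 library was left out. For LT-CML against LT-HSC, where none was called, 1 (Slc16a12) was called with a mean of at least 1 RPKM. All-gene calls there fell from 217 to 0 with no minimum on RPKM (over 18513 genes tested), to 6 without either LT-CML library, to 32 without the LT-HSC library from 6 months and to 74 without that from 2 months. For KLS- against stem cells, where 16 were called, 9 to 16 were called when 1 library was left out. For ST against LT cells, where 1 was called, 2 were called with a pseudocount of 0.1, with quantile normalization and with upper-quartile scaling (Slc16a1 the added one), 2 without both second LT libraries (Slc16a1 not among them, adjusted p = 0.0728), and 0 to 2 when 1 library was left out. With a mean of at least 1 RPKM, which removes Slc16a11, Slc16a1 was the 1 called. The interaction gave 0 transporters under every alternative run.

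No paired analysis was possible because the labels give no replicate numbers that are shared between the groups compared. Precision is limited by single libraries for ST and KLS- cells, by values under about 0.1 RPKM, which stand for a few reads, and by the 2 residual degrees of freedom of the LT comparison.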
